A study of Nothobranchius furzeri with 20 samples.

Results

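In skin RNA of young turquoise killifish (Nothobranchius furzeri), 150 genes separated exercised from unexercised fish with the widest gaps. They were chosen from 26739 genes in the deposited count table. Counts were scaled by the library's column total and are given as CPM, and levels are log2(CPM + 0.5). Of the 16648 genes with a mean of 1 to under 1000 CPM over all 20 libraries, those were kept whose 5 exercised libraries of 9 weeks lay wholly above or wholly below the 5 unexercised ones. In each direction the 75 genes with the largest gap between the group ranges were taken, called here the higher genes and the lower genes by their level in exercised fish. The young fish therefore chose the members, and their difference between exercised and unexercised fish is a description with no test.

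All fish were males of the strain MZM-04/10p. There were 5 libraries from exercised fish of 9 weeks (titles JM117 to JM121), 5 from unexercised fish of 9 weeks (JM124 to JM128) and 10 from exercised fish of 27 weeks. Exercise was given in a swim tunnel, where flowing water makes a fish keep swimming to hold its place. The 27-week titles form 2 runs under 1 shared label, JM132 to JM136 (the JM132 run) and JM140 to JM144 (the JM140 run), and 27 weeks has no unexercised group in the labels. Each 9-week group is also 1 run of titles, so exercise and anything else that goes with a run cannot be told apart. Each library was taken as 1 fish, but the labels do not state that they came from separate animals, and a p-value here covers only the scatter of these libraries, which may be technical. Totals ran from 20597690 to 38619614 counts.

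The turquoise killifish is an annual fish with a short natural life and is used to study ageing. Fish skin holds a living epidermis of keratinocytes and mucus cells, a dermis with fibroblasts, scales and pigment cells, and blood and immune cells, often with some muscle beneath it. In such a bulk tissue, fewer cells of a type and less RNA per cell cannot be told apart. The files pair no identifier with a gene name, and 0 of 26739 identifiers matched the reference gene table. Skin markers could thus not be checked, and no function is given to any gene here. At most 2 identifiers per direction are named for each comparison.

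Separation of the young groups was found in 425 genes (2.55% of the 16648), of which 123 (0.739%) were higher and 302 (1.81%) were lower in exercised fish. These shares come from the rule itself. The last of the 75 higher genes had a gap of 0.0796 log2 units, and the next gene, left out, had 0.0783. Among the lower genes the last member had a gap of 0.119 and the next gene 0.117. The direction of the majority depended on the scaling: with TMM, a scaling that is less moved by a few very abundant genes, 337 genes were higher and 166 lower. With DESeq2's size factors 290 were higher and 210 lower. With TMM, 69 of the 75 higher and 50 of the 75 lower genes still separated.

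Most members differed by a small amount. The ratio of the group means on the log scale had a median of 1.56 in the higher genes (range 1.21 to 4.27) and 1.57 in the lower genes (range 1.22 to 4.05). Only 16 higher and 14 lower genes differed by more than 2-fold, while 37 and 27 differed by less than 1.5-fold. Gaps were over 0.5 log2 units in 3 genes of each set. The smallest count in any young library was under 10 in 8 higher genes and in 1 lower gene, and it was 100 or more in 33 higher and 56 lower genes. The higher genes had a median mean level of 9.20 CPM and the lower genes 11.8 CPM, where all 16648 genes had 13.0 CPM, on a scale that is not per gene length. Median gene length, as implied by the deposited RPKM table, was 2.84 kb in the higher genes, 2.23 kb in the lower genes and 2.82 kb in all. The rule selects tight groups, and the median SD among exercised young fish was 0.167 log2 units in the higher and 0.212 in the lower genes, against 0.236 in all genes. The spread of the 27-week fish entered the rule only through the mean level. There the median SD of the higher genes was 0.417 in the JM132 run and 0.348 in the JM140 run, that of the lower genes 0.316 and 0.263, and that of all genes 0.271 and 0.249. In 5 higher genes JM133 alone lifted the mean to the 1 CPM asked for.

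**Figure D1:**
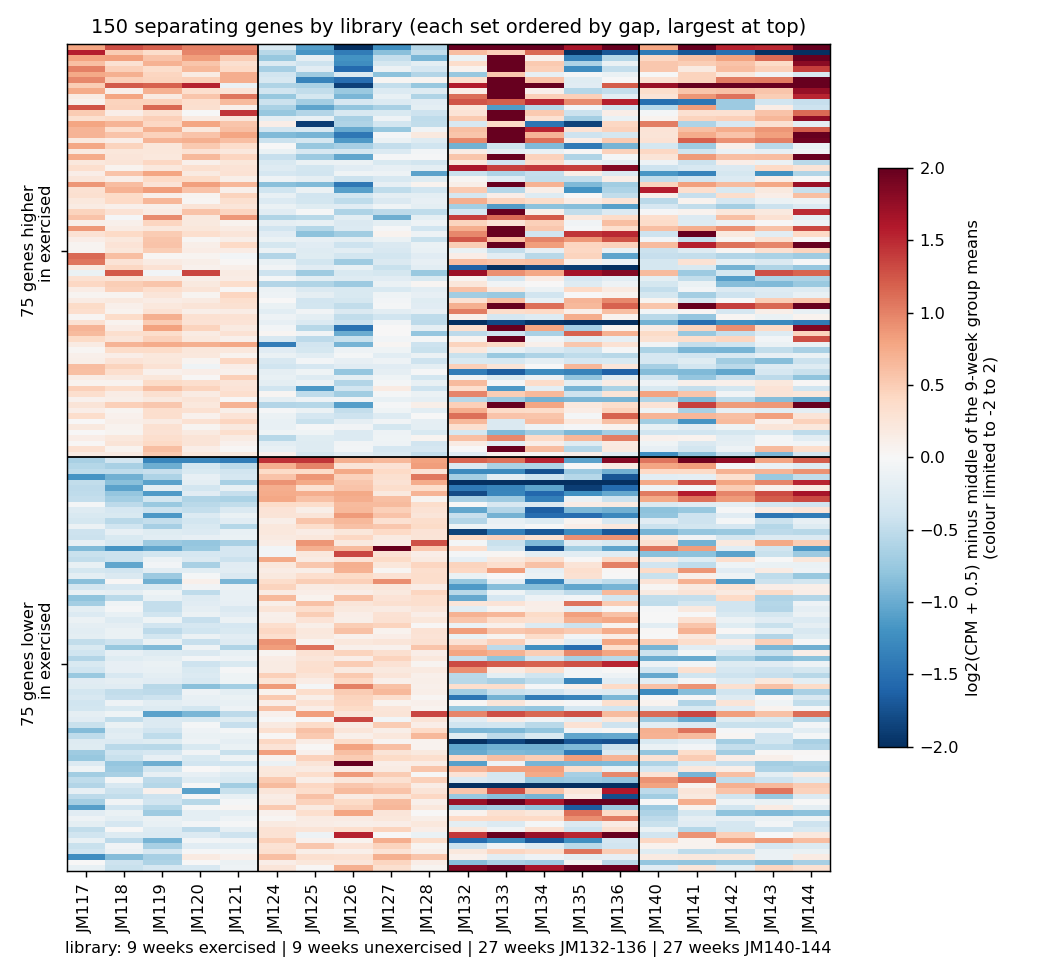
Level of each of the 150 genes (rows, each set ordered by gap) in each of the 20 libraries (columns), as log2(CPM + 0.5) minus the middle of the 9-week group means, with colour limited to -2 to 2. The young groups separate by construction. In the 27-week fish the colours mix, and JM133 is at or past the upper colour limit in 23 of the higher genes that are described for it.

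The largest gap of the higher genes belonged to Nfu_g_1_018732. Exercised fish of 9 weeks had 9.56, 13.8, 12.7, 11.2 and 11.1 CPM in order of titles, and unexercised fish had 4.18, 2.21, 0.964, 1.99 and 3.40 CPM. At 27 weeks JM132 to JM136 had 31.6, 170.4, 23.6, 17.8 and 25.1 CPM, and JM140 to JM144 had 9.62, 22.8, 16.4, 16.0 and 34.4 CPM. All 10 older fish were thus above every unexercised young fish, and JM133 stood far above the rest. The rule favoured tight 9-week groups, which can make p too small in the tests against their middle, here and below. Against the middle of the 9-week groups the log2 fold change in edgeR's quasi-likelihood test, adjusted over all genes, was 3.24 (SE 0.480, adjusted p = 4.23e-05) for the JM132 run, 2.07 without JM133, and 2.04 (SE 0.293, adjusted p = 0.000442) for the JM140 run.

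Nfu_g_1_007247 had the second gap. Exercised young fish had 45.9, 21.7, 19.4, 30.2 and 31.3 CPM and unexercised ones 10.1, 6.35, 5.40, 8.23 and 10.5 CPM. At 27 weeks JM132 to JM136 had 23.4, 21.2, 33.7, 2.54 and 4.26 CPM, and JM140 to JM144 had 5.32, 4.27, 4.99, 3.07 and 2.95 CPM. Here 3 older fish lay at the level of exercised young fish, and the other 7 lay below every unexercised young fish. The edgeR log2 fold change against the 9-week middle was 0.06 (SE 0.474, adjusted p = 0.916) for the JM132 run and -1.71 (SE 0.272, adjusted p = 0.000796) for the JM140 run.

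Among the lower genes Nfu_g_1_021346 had the largest gap. Exercised young fish had 6.57, 7.99, 3.95, 3.94 and 3.67 CPM, and unexercised ones 29.65, 29.1, 17.5, 16.8 and 18.8 CPM. In the older fish, JM132 to JM136 had 24.3, 22.9, 31.3, 4.74 and 38.6 CPM, and JM140 to JM144 had 22.6, 41.7, 36.9, 18.6 and 24.95 CPM. Of 10 older fish, all labelled as exercised, 9 had the level of unexercised young fish or more, and JM135 alone was as low as the exercised ones. The edgeR log2 fold change against the 9-week middle was 1.05 (SE 0.346, adjusted p = 0.0179) for the JM132 run and 1.61 (SE 0.263, adjusted p = 0.000903) for the JM140 run. The first did not pass without JM134 (adjusted p = 0.0529) or without JM136 (adjusted p = 0.0523).

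Nfu_g_1_011006 was second among the lower genes. Exercised young fish had 3.82, 3.59, 2.75, 4.498 and 3.97 CPM, and unexercised ones 10.04, 12.2, 7.17, 7.34 and 10.9 CPM. JM132 to JM136 had 4.76, 3.62, 3.74, 5.88 and 6.72 CPM and JM140 to JM144 had 10.6, 10.97, 5.80, 5.36 and 4.93 CPM. In both runs of older fish the values overlapped the span between the young groups. Neither run passed against the 9-week middle, with edgeR adjusted p = 0.137 for the JM132 run and 0.120 for the JM140 run. The plot of named members by library shows these 4 genes in its upper row.

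**Figure D2:**
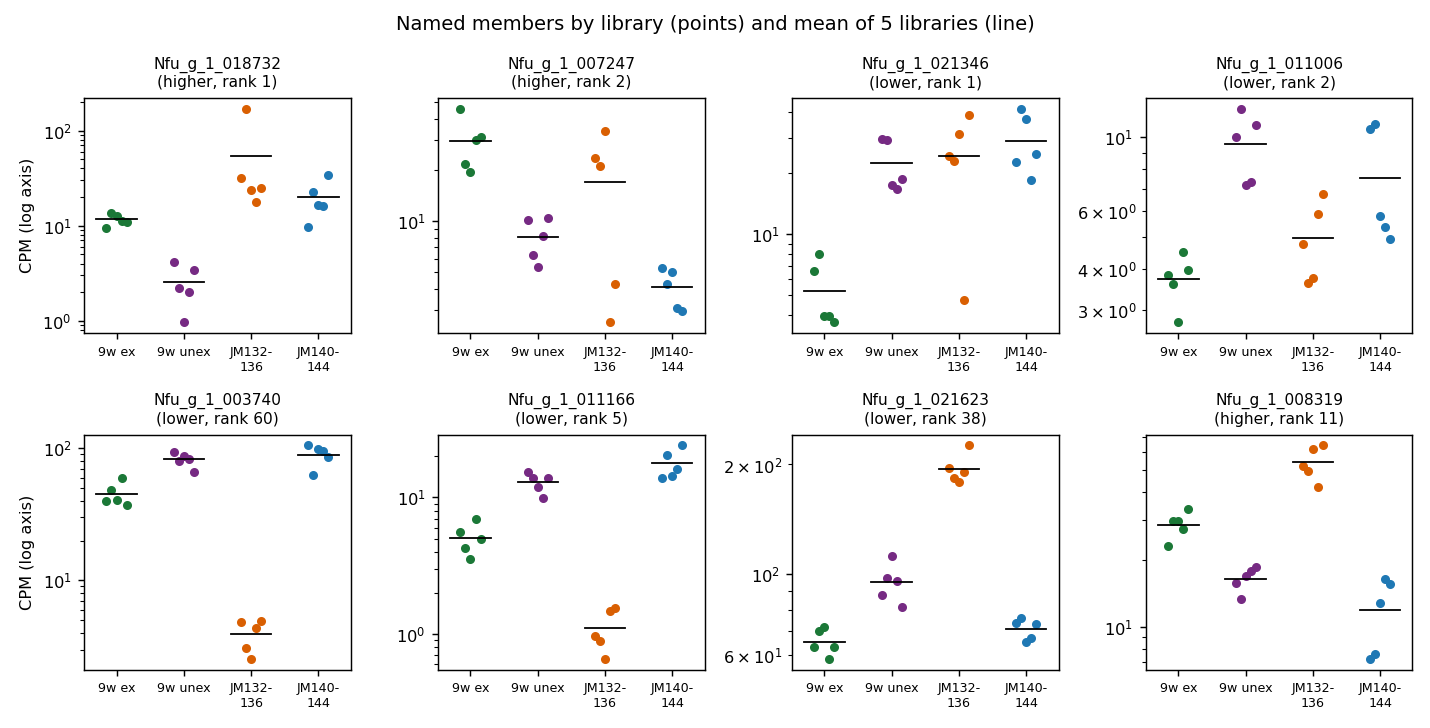
CPM on log axes of 8 members in each library (points) and the mean of 5 libraries (line) for exercised and unexercised fish of 9 weeks and both 27-week runs. The upper row holds the 2 largest gaps of the higher and of the lower genes, and the lower row the members with the smallest adjusted p between the 27-week runs, where the 2 runs do not overlap in any of the 4 genes.

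Whether a young fish that had no part in the gaps still fell with its own group was described by taking the gaps without it. The mean level of 1 to under 1000 CPM was still taken over all 20 libraries, the left-out fish among them. For each of the 10 young fish, 75 genes per direction were chosen by the gaps among the other 9. The fish was then placed above or below the middle of each gap, halfway between the nearest fish of both groups. Over all fish, 1009 of 1500 placements (67.3%) were on the side of the fish's own group, 540 of 750 for higher and 469 of 750 for lower genes. The 5 exercised fish, in order of titles, had 61.3%, 78.7%, 82.0%, 50.7% and 61.3% of the 150 genes on their own side. The 5 unexercised fish had 59.3%, 78.7%, 64.7%, 71.3% and 64.7%. JM119 was thus placed best, and JM120, with 76 of 150, was split almost evenly. Choosing without 1 fish kept 82 to 123 of the 150 members, fewest without JM120. With TMM scaling 958 of 1500 placements (63.9%) were on the own side, with a range of 73 to 123 per fish. A left-out fish shares its title run with its group, so these counts hold for the run as much as for exercise.

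**Figure D3:**
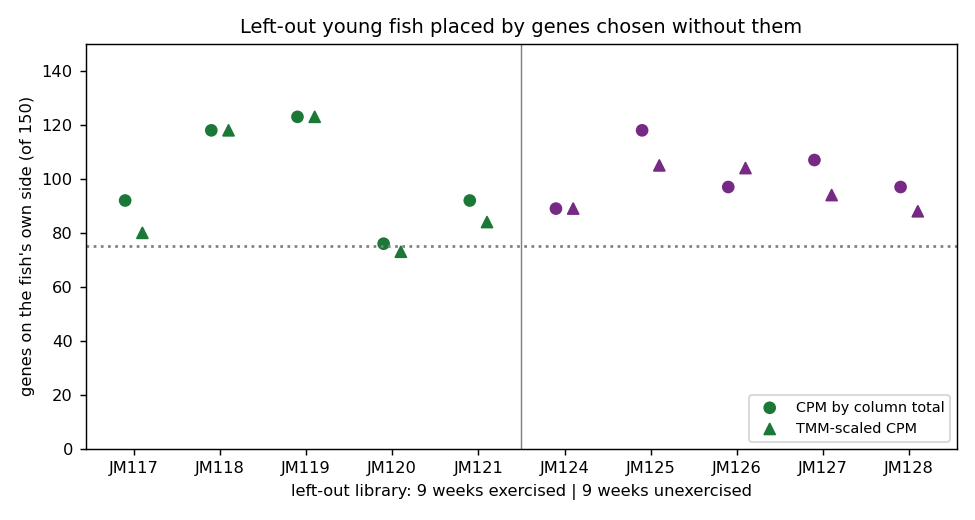
Placement of each left-out 9-week fish by 150 genes chosen from the gaps among the other young fish. Points give the number of genes on the side of its own group, for CPM by column total (circles) and TMM-scaled CPM (triangles). By column total the counts run from 76 (JM120) to 123 (JM119), and the dotted line marks an even split at 75.

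The 27-week fish were mixed between the sides of the gap. On the exercised side of the gap were 53, 45, 42, 33 and 37 of the 75 higher genes in JM132 to JM136, and 31, 32, 34, 41 and 39 in JM140 to JM144. For the lower genes the numbers were 46, 44, 45, 46 and 41, and 46, 37, 46, 50 and 52. Together 86.4 ± 8.53 (SD, n = 5) of the 150 genes were on the exercised side in the JM132 run and 81.6 ± 9.48 (SD, n = 5) in the JM140 run. Single older fish had 46.0% to 66.0% of the 150 genes there, and 9 of 10 had more than an even split. Left-out young fish, placed by genes whose gaps were taken without them, had 50.7% to 82.0% on the exercised side if exercised and 21.3% to 40.7% if not. By column total the older fish thus overlapped the left-out exercised fish and lay above the left-out unexercised ones. With TMM their range was 40.0% to 63.3% and overlapped both, at 48.7% to 82.0% and 30.0% to 41.3%. The gene lists differ between these placements, and the difference was not tested.

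The counts of single directions moved with the scaling. The median of all genes in the JM140 run minus the JM132 run was -0.23 log2 units by column total and 0.03 with TMM. For the JM140 run the mean number of higher genes on the exercised side was 35.4 ± 4.39 by column total and 41.8 ± 3.03 with TMM (SD, n = 5). For its lower genes these were 46.2 ± 5.76 and 34.6 ± 8.20 (SD, n = 5). For the JM132 run the lower genes gave 44.4 ± 2.07 and 46.8 ± 1.64 (SD, n = 5). By column total, all 10 older fish lay on the exercised side in 7 higher and 8 lower genes, and 0 of 10 did in 9 higher and 3 lower genes. In the JM132 run all 5 fish were on the exercised side in 17 higher and 30 lower genes, and none in 10 and 18. In the JM140 run all 5 were there in 20 and 23 genes, and none in 24 and 11. The runs took wholly opposite sides in 4 higher and 11 lower genes, and among the latter the JM132 run held the exercised side in 5 and the JM140 run in 6. No share over all genes was computed for the counts of sides, so an even split is not a background share. Without regard to the gap, the JM140 run lay wholly above the JM132 run in 5.33% of higher, 16% of lower and 5.45% of all 16648 genes. It lay wholly below in 13.3%, 21.3% and 27.9%. With TMM the shares above were 8%, 25.3% and 13.3%, and those below 6.67%, 14.7% and 18.6%.

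**Figure D4:**
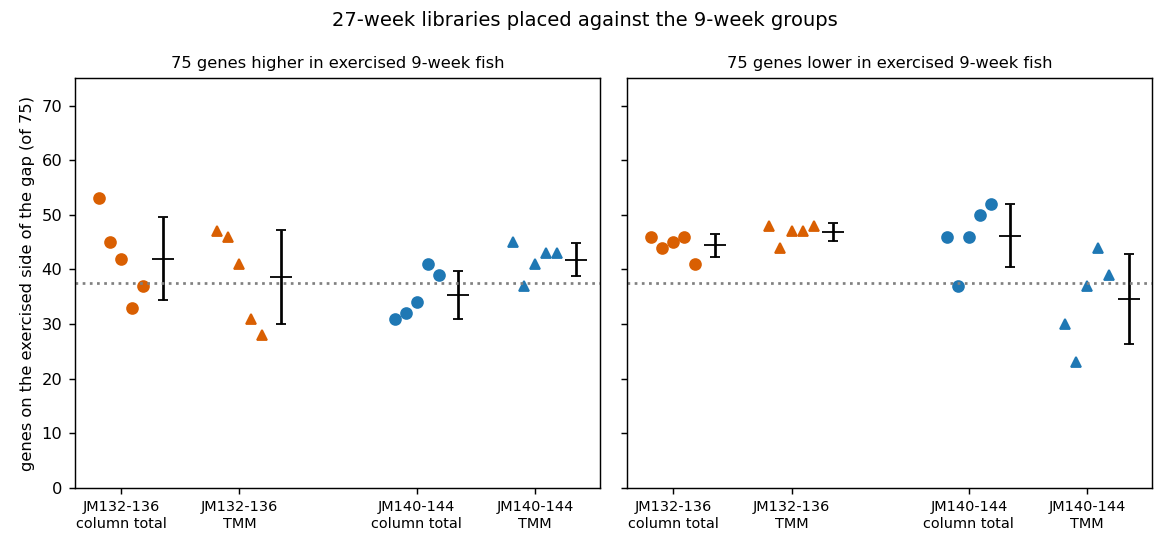
Number of the 75 higher genes (left) and 75 lower genes (right) on the exercised side of the gap in each 27-week library (points), with mean and SD of 5 libraries (black), by column total (circles) and TMM (triangles). The dotted line marks an even split, around which the counts range from 23 to 53. With TMM some members no longer separated the young groups, and the middle was still used.

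A set of higher genes stood out in single fish. JM133, replicate 2 of 27 weeks, was at least 2 log2 units above the median of the other 9 fish of that age in 24 of 75 higher genes (32%) and in 1 of 75 lower genes. Among all 16648 genes this held for 292 (1.75%). The pattern was noticed in the values and then counted, so these 24 genes were not tested as a list. Counts of them that passed gene by gene, given further below, are only a description. In them JM133 was above that median by 2.19 to 4.64 log2 units, with 3.60 as the middle value over genes. It was the highest of the 10 older fish in 23 of the 24, the exception being Nfu_g_1_007247. The mean level of 1 CPM that the rule asks for was reached only through JM133 in 5 of the 24 genes, and 8 of them had a mean under 1 CPM over the young fish. JM144, replicate 10, was the highest of the other 9 fish in 21 of the 24. JM126, the third unexercised fish, was the lowest of all young fish in 20 of the 24. With TMM 23 higher genes met the limit.

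The level of these 24 genes relative to the middle of the young groups shows the order of the fish. The median was 0.64, 0.32, 0.47, 0.51 and 0.44 log2 units in the exercised young fish and -0.39, -0.51, -1.07, -0.16 and -0.26 in the unexercised ones. At 27 weeks JM132 to JM136 had 0.48, 4.17, 0.59, -0.42 and -0.03, and JM140 to JM144 had 0.29, 0.60, 0.68, 0.65 and 1.79. Older fish thus spanned from the unexercised level (JM135) to many times the exercised one. Mean levels of these genes ran from 1.12 to 78.5 CPM, and their ratio between the young groups had a median of 1.92 (range 1.37 to 4.27). The other 51 higher genes are by this choice those without a far value in JM133. Their medians in the older fish were 0.22, -0.18, -0.11, -0.02 and 0.07 in JM132 to JM136 and -0.34, -0.39, -0.32, -0.13 and -0.17 in JM140 to JM144. By column total 11, 10, 12, 19 and 16 of these 51 genes were on the exercised side in JM140 to JM144, beside 20, 22, 22, 22 and 23 of the 24. The median of all genes lay below the young middle in these fish on that scale, by -0.28, -0.29, -0.19, -0.12 and -0.14. With TMM the numbers were 22, 15, 18, 21 and 20 of the 51 and 23, 22, 23, 22 and 23 of the 24, and the medians of the 51 ran from -0.16 to -0.04. The medians of the 24 with TMM were 0.54, 0.85, 0.86, 0.72 and 1.91, so both lists moved up with that scaling. What the 24 genes share beyond this was not tested, since none could be named.

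**Figure D5:**
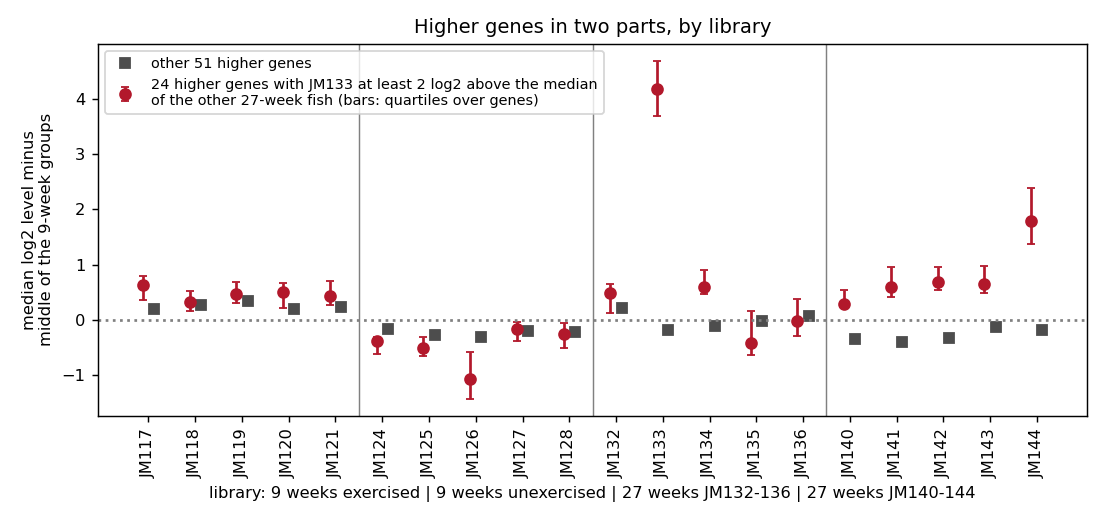
Median level by library, as log2(CPM + 0.5) minus the middle of the 9-week group means, of the 24 higher genes in which JM133 was at least 2 log2 units above the median of the other 27-week fish (red circles, bars give quartiles over genes) and of the other 51 higher genes (grey squares). JM133 at 4.17 and JM144 at 1.79 stand above all other libraries in the 24 genes, and JM126 at -1.07 is the lowest.

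The next comparison asked which members differed between the 2 title runs of 27-week fish, whose libraries entered the rule only through the mean level. In edgeR's quasi-likelihood test with Benjamini-Hochberg adjustment over all 18306 genes tested, 41.6% of genes passed at 0.05, 20.3% higher and 21.2% lower in the JM140 run. All 75 genes of each set were tested. Of the higher genes 15 (20%) passed, 8 higher and 7 lower in the JM140 run. Of the lower genes 39 (52%) passed, 26 higher and 13 lower. The share of lower genes called higher, 34.7%, was above the background, and the share of higher genes called, 20%, was below it. The median log2 fold change was -0.33 in the higher genes, 0.25 in the lower genes and 0.05 in all genes tested. With limma-voom the median of the higher genes was 0.15, so its sign depended on the tool. The result for the higher genes rested on JM133. Without it 26 of them (34.7%) passed, beside 37.47% of all genes in that fit. Of these 20 (26.7%) were higher in the JM140 run, beside 16.6% of all genes, and the median log2 fold change was 0.24. Of the 20, 12 were among the 24 genes described for JM133, whose median was 1.22. The other 8 were among the 51 remaining higher genes, whose median was -0.04. The counts of lower genes without JM133 were 25 and 11.

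Nfu_g_1_003740, a lower gene of rank 60, had the smallest adjusted p. Its CPM was 40.05, 47.9, 40.3, 59.8 and 37.02 in exercised young fish, 93.5, 79.9, 87.8, 82.9 and 66.4 in unexercised ones, 4.85, 3.08, 2.54, 4.35 and 4.97 in JM132 to JM136 and 105.1, 63.1, 98.8, 94.5 and 85.5 in JM140 to JM144. The JM140 run thus overlapped the unexercised young fish, and the JM132 run was far below both young groups. The log2 fold change of the JM140 run over the JM132 run was 4.79 (SE 0.214, edgeR adjusted p = 1.16e-06).

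Nfu_g_1_011166, rank 5 among the lower genes, followed the same order. It had 5.55, 4.27, 3.57, 6.95 and 4.96 CPM in exercised and 15.4, 13.9, 11.9, 9.90 and 13.8 CPM in unexercised young fish. In the older fish, JM132 to JM136 had 0.971, 0.896, 0.657, 1.48 and 1.55 CPM and JM140 to JM144 had 13.9, 20.3, 14.3, 16.2 and 24.0 CPM. The log2 fold change was 4.28 (SE 0.261, edgeR adjusted p = 2.97e-06), and the runs did not overlap.

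In the other direction Nfu_g_1_021623, a lower gene of rank 38, had 63.4, 70.2, 71.5, 58.6 and 63.2 CPM in exercised and 87.8, 97.85, 112.3, 95.9 and 81.55 CPM in unexercised young fish. JM132 to JM136 had 195, 184, 179, 191 and 226 CPM and JM140 to JM144 had 73.5, 75.8, 65.3, 67.0 and 73.3 CPM. Here the JM140 run lay near the exercised young fish and the JM132 run above all young fish. The log2 fold change was -1.16 (SE 0.0982, edgeR adjusted p = 1.21e-05).

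Nfu_g_1_008319, rank 11 among the higher genes, had 22.9, 29.6, 29.8, 27.2 and 33.5 CPM in exercised and 15.8, 13.3, 16.9, 17.7 and 18.45 CPM in unexercised young fish. At 27 weeks JM132 to JM136 had 52.1, 49.8, 62.1, 42.0 and 64.5 CPM, all above the exercised young fish. JM140 to JM144 had 7.22, 7.62, 12.8, 16.4 and 15.5 CPM, at or below the unexercised level. The log2 fold change was -1.91 (SE 0.213, edgeR adjusted p = 6.27e-05).

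The last comparison asked which members at 27 weeks lay above or below the middle of the young groups. Each run was set against the middle of both 9-week groups, the mean of their log levels, since the rule chose on the difference of these groups and not on their middle. Both comparisons share the 9-week libraries, and the rule also used the spread inside the 9-week groups, which enters these fits. The rule favoured tight groups, which can raise the share of members called above that of all genes. Age and title run cannot be told apart. All 27-week fish are labelled exercised, while the middle holds both exercised and unexercised fish, so exercise enters these comparisons too. A higher gene that kept the exercised 9-week level would rise against the middle, and a lower gene that kept it would fall. The words rose and fell mean only above and below this middle. In the JM132 run, 55.8% of 19009 genes tested passed (edgeR, adjusted p under 0.05), 28.3% higher and 27.5% lower than the 9-week middle. Of the 75 higher genes 36 (48%) rose and 12 (16%) fell, with a median log2 fold change of 0.30. Of the 75 lower genes 18 (24%) rose and 32 (42.7%) fell, with a median of -0.23. Over all genes tested the median was -0.05. The count of higher genes that rose did not hold across tools or without JM133. With limma-voom it was 18 (24%), beside 27.5% of all genes. DESeq2 gave a p-value to only 56 of the 75, and 17 of these rose, beside 24.7% of all genes with a p-value. Among the 24 genes described for JM133, 5 had a p-value there, so the DESeq2 count mostly leaves them out. Without JM133 the count of higher genes that rose was 19 (25.3%), beside 26.6% of all genes, with a median of 0.06. In that fit 17 lower genes rose and 31 fell. In 8 higher genes and 1 lower gene the mean over the young fish was under 1 CPM, so that they met the rule's level only through the older fish. Without these, 28 of 67 higher genes rose in the JM132 run, with JM133 still in that fit. Of the 36 that rose, 22 were among the 24 genes described for JM133 and 14 among the other 51. Of those 51 genes 12 fell, and their median was -0.07. JM133 is in this run and chose the 24, so this split follows largely from the choice and is only a description. Without JM133, 6 of the 24 rose, with a median of 0.08. Of the other 51 in that fit 13 rose and 10 fell, with a median of -0.01.

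In the JM140 run, 23.1% of 18898 genes tested passed in the same test, 12.5% higher and 10.6% lower than the 9-week middle. Of the higher genes 26 (34.7%) rose and 10 (13.3%) fell, with a median log2 fold change of 0.19. Among the 24 genes described for JM133, 22 rose and 1 fell, with a median of 1.29. Without JM144 17 of them rose, with a median of 0.88. In that fit 20 of the 75 higher genes (26.7%) rose, beside 9.59% of all genes. With TMM the medians of the 24 above the young middle were 0.54 to 0.86 in JM140 to JM143 and 1.91 in JM144. Exercised young fish had 0.32 to 0.77 on that scale. Of these 24, 8 had a young mean under 1 CPM and met the rule's level only through older fish. A rise in those 8 is partly set by the rule. Of the other 51 higher genes 4 rose and 9 fell, with a median of -0.03. Of the lower genes 14 (18.7%) rose and 7 (9.33%) fell, with a median of 0.05. Over all genes the median was -0.01. Of the 67 higher genes with a young mean of at least 1 CPM, 19 rose. The 8 higher genes under that level are all among the 24, so these 19 include the 4 of the other 51. When all 20 libraries entered 1 fit, JM133 among them, 8 higher genes (10.7%) rose in the JM140 run, beside 11.3% of all genes. Of the 24 genes 5 rose in that fit.

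Of the members that rose in each run, Nfu_g_1_005996, a higher gene of rank 8, was first when ordered by the smaller of its fold changes. Exercised young fish had 13.6, 23.25, 22.35, 28.9 and 8.82 CPM and unexercised ones 6.16, 6.02, 2.28, 6.77 and 5.48 CPM. In the older fish, JM132 to JM136 had 29.7, 1012, 46.0, 8.10 and 22.8 CPM, and JM140 to JM144 had 32.9, 45.7, 46.0, 40.2 and 161.6 CPM. JM135 and JM136 were within the young range, and the mean of their run rested on JM133. The edgeR log2 fold change was 4.41 (SE 0.869, adjusted p = 0.000533) in the JM132 run, 2.27 with limma-voom, 1.29 without JM133, and 2.84 (SE 0.374, adjusted p = 0.000276) in the JM140 run.

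Nfu_g_1_003994, a higher gene of rank 37, was next by the same measure and low in the young fish. Young fish had 0.401, 0.554, 0.79, 0.450 and 0.643 CPM with and 0.179, 0.248, 0.154, 0.214 and 0.298 CPM without exercise. JM132 to JM136 had 0.728, 11.65, 1.06, 0.673 and 0.706 CPM and JM140 to JM144 had 0.855, 2.07, 1.36, 1.21 and 4.24 CPM. JM133 and JM144 were again the highest fish of their runs. The mean over all 20 libraries was 1.42 CPM and fell to 0.885 CPM without JM133, below the limit of the rule. This gene is thus a member only through a 27-week fish, and its fitted log2 fold changes are given with no test, 3.01 in the JM132 run, 1.08 without JM133, and 2.63 in the JM140 run.

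Of the members that fell in both runs, Nfu_g_1_010369, a higher gene of rank 51, had the larger change. It had 7.40, 6.23, 8.66, 7.37 and 7.23 CPM in exercised and 5.23, 4.83, 4.28, 5.63 and 3.96 CPM in unexercised young fish. At 27 weeks JM132 to JM136 had 0.534, 1.33, 1.14, 0.725 and 0.819 CPM and JM140 to JM144 had 2.82, 1.73, 2.24, 2.16 and 1.90 CPM, so that no older fish reached any young one. The edgeR log2 fold change was -2.76 (SE 0.206, adjusted p = 3.45e-08) in the JM132 run and -1.25 (SE 0.136, adjusted p = 0.000124) in the JM140 run.

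Nfu_g_1_013738, a lower gene of rank 37, fell by less. It had 74.4, 95.2, 97.55, 108.3 and 104.7 CPM in exercised and 124.53, 133.2, 123.5, 153 and 129.6 CPM in unexercised young fish. In the older fish, JM132 to JM136 had 81.4, 64.4, 85.7, 70.6 and 77.5 CPM and JM140 to JM144 had 56.15, 55.7, 72.0, 61.1 and 63.5 CPM. The older fish lay below all unexercised young fish, and the JM132 run overlapped the exercised ones. The edgeR log2 fold change was -0.64 (SE 0.0938, adjusted p = 3.70e-05) in the JM132 run and -0.67 (SE 0.0870, adjusted p = 0.000245) in the JM140 run.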

How the data were processed

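Total RNA of skin gave 20 TruSeq (kit v2) libraries, per the labels' protocols. The authors deposited whole-number counts per gene and library, for which the submitters' processing notes name featureCounts 1.4.6-p4, STAR 2.4.1d and bcl2fastq 1.8.4. The sources used here do not give the build, annotation or strand setting, so overlapping or near-identical genes may share reads. The authors also deposited RPKM values, in which 100% of 10228 well-measured genes had library totals recycled down the rows, so these gave only gene lengths and 1 alternative choice of members. Members and lists were chosen with earlier results of these data known. CPM use column totals. Tests used edgeR 4.0.16 in R 4.3.3 (TMM, its expression filter, robust quasi-likelihood, all genes adjusted), checked on simulated data. SEs of edgeR fold changes were derived from the F statistic (log2 fold change over its root). Alternatives were DESeq2 1.42.0, limma-voom (limma 3.58.1), other scalings, filters and fits, and leaving out each library. Named genes were the 2 largest gaps per direction, the 2 smallest adjusted p per direction between runs, and the 2 per direction called alike in both runs with the largest smaller change. Totals of 20597690 to 38619614 counts set the precision, so genes near 1 CPM rest on few reads. Each of 40 library pairs within a group differed beyond counting noise (lowest chi-square per degree of freedom 34.3). Marker lists were written but not run, for want of gene names.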

Additional observations from a re-analysis of the deposited data

Results flagged for a closer look

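In 11 of 78 checks 1 library lay well apart from its group. Chance flags about 1 in 20 independent checks, but these share fish and genes, some used genes picked for JM133 and some used young fish that chose the members, so the number is not set against chance. All values are log2(CPM + 0.5), or medians relative to the middle of the 9-week groups. In Nfu_g_1_018732 JM133 had 7.42, with the next of the 10 older fish at 5.12 and the next of its run at 5.00. In Nfu_g_1_003994 JM133 had 3.60 and the next of its run 0.64. The median of the 24 higher genes described for JM133, which were picked for its value, was 4.17 there, with the next older fish at 1.79 and the next of its run at 0.59. In the JM140 run JM144 stood apart, with a median of 1.79 in these 24 genes against 0.68 in the next fish. In Nfu_g_1_005996 JM144 had 7.34 and the next fish 5.54. In the same gene JM126, an unexercised fish of 9 weeks, had 1.47 and the next fish 2.58. JM126 also had the highest median of the lower genes in its group, 0.44 against 0.29. With TMM it had 0.21, within the 0.17 to 0.37 of its group. In Nfu_g_1_021346 JM135 was low at 2.39, with the next of the older fish at 4.25 and the next of its run at 4.55.

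The change from 9 weeks differed between the 27-week runs in the named genes that follow, tested as the edgeR log2 fold change of the JM140 run over the JM132 run, a test that 41.6% of all genes passed. It was 4.79 in Nfu_g_1_003740, 4.28 in Nfu_g_1_011166, -1.16 in Nfu_g_1_021623 and -1.91 in Nfu_g_1_008319, all chosen for this difference. It was 1.52 in Nfu_g_1_010369 (adjusted p = 0.00150). It was -1.77 in Nfu_g_1_007247 (adjusted p = 0.0437), a call lost in 8 of the 10 fits without 1 library. It was 0.93 in Nfu_g_1_011006 (adjusted p = 0.0265), a call lost in 5 of them, with adjusted p from 0.0604 to 0.0742.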

How the results depend on the processing

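No paired analysis was possible because the labels give the groups no shared replicate numbers. When 1 library was left out, the members called of 150 were 48 to 62 between the runs (54 in the test reported), beside 36.5% to 41.6% of all genes. They were 77 to 100 for the JM132 run (98), beside 51.4% to 56.8%, and 49 to 60 for the JM140 run (57), beside 17.4% to 25.7%. With all 20 libraries in 1 fit, 37 of 150 were called in the JM140 run, beside 22.2% of all genes. By the rule, 425 young genes separated, 283 with the deposited RPKM, and 524 to 874 without 1 fish. Of the members, 83 were kept with TMM, 86 with DESeq2's size factors, 39 with RPKM and 82 to 123 without 1 fish. On the exercised side with TMM, where some members no longer separated, were 46.8 lower genes in the JM132 run. In the JM140 run these were 41.8 higher and 34.6 lower genes. Without JM133 the mean in the JM132 run was 85.75 of 150, an alternative chosen after the data were seen, as were TMM for the 24 and 51 genes and the limit of 1 CPM in young fish. No fold change of a named gene that was called in the tests reported reversed in any alternative run. Some that were not called did change sign. Between the runs Nfu_g_1_003994 had -0.40, and -0.87 to 1.54 in the alternatives. Its lowest adjusted p among these alternatives was under 0.05, in a gene that is a member only through a 27-week fish. Calls were lost for Nfu_g_1_007247 between runs in 10 alternatives (limma-voom, no count filter and 8 that leave out a library), for Nfu_g_1_011006 between runs in 5 and for Nfu_g_1_021346 in the JM132 run in 3 (limma-voom among them). The causes were not tested.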
